A study of Homo sapiens with 6 samples.

Results

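The 10 genes described here are regulators and effectors of the epithelial-mesenchymal transition (EMT): the cadherins CDH1 and CDH2, the structural genes VIM and FN1, the transcription factors ZEB1, ZEB2, SNAI1 and SNAI2, and the epithelial regulators GRHL2 and ESRP1. They were taken by gene symbol, and all 10 were present among the 19202 genes of the count table. The counts come from RNA sequencing of MHCC97H, a cell line from human liver cancer that metastasises readily. There were 3 control libraries, labelled as sensitive to the multikinase inhibitor sorafenib, and 3 libraries of the same line labelled resistant to it. The labels give no genotype, sorafenib dose, selection time, clone or drug content of the medium at harvest. Whether replicates came from separate cultures is not stated either, so p-values measure only how far these libraries spread, and that spread may be technical. Totals ran from 1913469 counts in control replicate 1, the shallowest library, to 5345272 in control replicate 2. Levels are in CPM (counts scaled to a common library size), computed from the counts in tested genes and a TMM factor (a trimmed-mean correction between libraries). A log2 fold change (log2FC) above 0 means a higher level in resistant cells.

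EMT is the program by which epithelial cells loosen their junctions and gain motility. Its transcription factors of the SNAIL and ZEB families bind E-box sequences and repress epithelial genes, of which E-cadherin (CDH1) is the best known. GRHL2 and ESRP1 hold the epithelial state, the first as a transcription factor and the second as a splicing regulator. N-cadherin (CDH2), the intermediate filament protein vimentin (VIM) and the matrix protein fibronectin (FN1) are the usual markers of the mesenchymal side. In liver the picture is less clear-cut, since hepatocytes themselves make N-cadherin and secrete fibronectin.

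Control replicate 1 and resistant replicate 3 stood apart from the other libraries. In control replicate 1, CDH1 and several other epithelial genes were higher than in the other libraries. Of 21 listed polarity and junction genes, 10 were highest in that library, while 22.4% of all tested genes were. That list summed to 1010 to 1069 CPM in control and 872 to 974 CPM in resistant libraries. EPCAM, SPINT2, MAL2 and PRSS8, chosen after their values were seen, summed to 25.7 CPM in control replicate 1, from 50 counts. The sum was 4.52 and 6.45 CPM in the other control libraries and 5.14 to 7.98 CPM in the resistant ones, from 19 to 39 counts. Several endothelial transcripts were high in resistant replicate 3. Of 7 endothelial markers 6 were highest there, while 12.5% of all tested genes were, though only 2 of the 7 were tested. These 2, PECAM1 and KDR, were present in every library. PECAM1 was highest in control replicate 1, with 43.2 CPM against 41.7 CPM in resistant replicate 3. KDR had 20.1 to 42.6 CPM over the 6 libraries. The summed level of the 7 markers was 142 CPM in resistant replicate 3. It was 40.6 and 52.0 CPM in the other resistant and 51.3 to 68.6 CPM in the control libraries. VWF had 26.2 CPM and CDH5 had 19.2 CPM in resistant replicate 3, and neither exceeded 3.09 CPM elsewhere. TEK was at 0 in every control library and in resistant replicate 1. Of 10 fibroblast and stellate cell markers 8 were highest in the same library, against the same 12.5%, and 3 of the 10 were tested. The 10 summed to 65.1 CPM there against 19.3 to 43.1 CPM in the others. Some were near the floor even there, such as PDGFRA with 14 counts and ACTA2 with 7. ACTA2 reached at most 1.43 CPM anywhere. LUM, the most abundant of the 10, went the other way. It was highest in control replicate 3, with 20.2 CPM against 8.59 CPM in resistant replicate 3. Of 7 leukocyte markers the sum was 6.21 to 11.1 CPM in every library, and PTPRC had the highest mean. Of 10 hepatocyte and liver cancer markers 7 were tested and 3 were called, each of them lower in resistant cells. Of all tested genes 12.3% were called lower. The 3 markers are named here after their values were seen. ALB, encoding albumin, had 13.4, 17.7 and 20.8 CPM in control and 1.62, 6.58 and 8.39 CPM in resistant replicates 1, 2 and 3 (log2FC -1.62, SE 0.37, edgeR adjusted p 0.00113). APOB, the apolipoprotein of secreted lipoproteins, had 19.1 to 29.8 CPM in control and 2.44 to 12.0 CPM in resistant libraries (log2FC -1.47, SE 0.34, edgeR adjusted p 0.00108). SERPINA1, encoding alpha-1-antitrypsin, had a log2FC of -1.44 (SE 0.49, edgeR adjusted p 0.0268). Its groups did not overlap, nor did those of ALB and APOB. The SERPINA1 call was lost without replicate 2 (0.11) or 3 (0.0902) of the control cells and without replicate 2 (0.114) or 3 (0.0543) of the resistant cells, while ALB and APOB were called in all 17 alternative settings. The other markers were not called or too low to test. The keratin gene KRT8 had a mean of 1276 ± 154 CPM in control against 1099 ± 101 CPM in resistant cells (SD, n = 3 each). HNF4A, the hepatocyte transcription factor, had 36.0 to 44.9 CPM. GPC3 was at 0 in 5 of 6 libraries and APOA1 in 4. The summed level of the 10 markers, most of it from KRT8 and KRT18, was 1891 to 2354 CPM in control and 1769 to 2103 CPM in resistant libraries. The part of the endothelial, stromal and epithelial transcripts in the results was not tested, and the member calls are given with and without these libraries.

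Of the 10 EMT genes 8 passed the filter on low counts and 4 were called at an adjusted p under 0.05 in edgeR's quasi-likelihood test: SNAI1 and VIM higher, FN1 and CDH1 lower. The background is high, with 24.1% of the 10804 tested genes called, 11.7% higher and 12.3% lower. The median log2FC of the 8 tested members was 0.20, and that of all tested genes was -0.01. Control and resistant libraries did not overlap for FN1, SNAI1, CDH1 and ZEB2, that is for 4 of the 10, while 38.1% of tested genes had no overlap. The calls of FN1 and SNAI1 held in all 17 alternative settings, whereas those of CDH1 and VIM each ended when 1 library was left out.

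**Figure D1:**
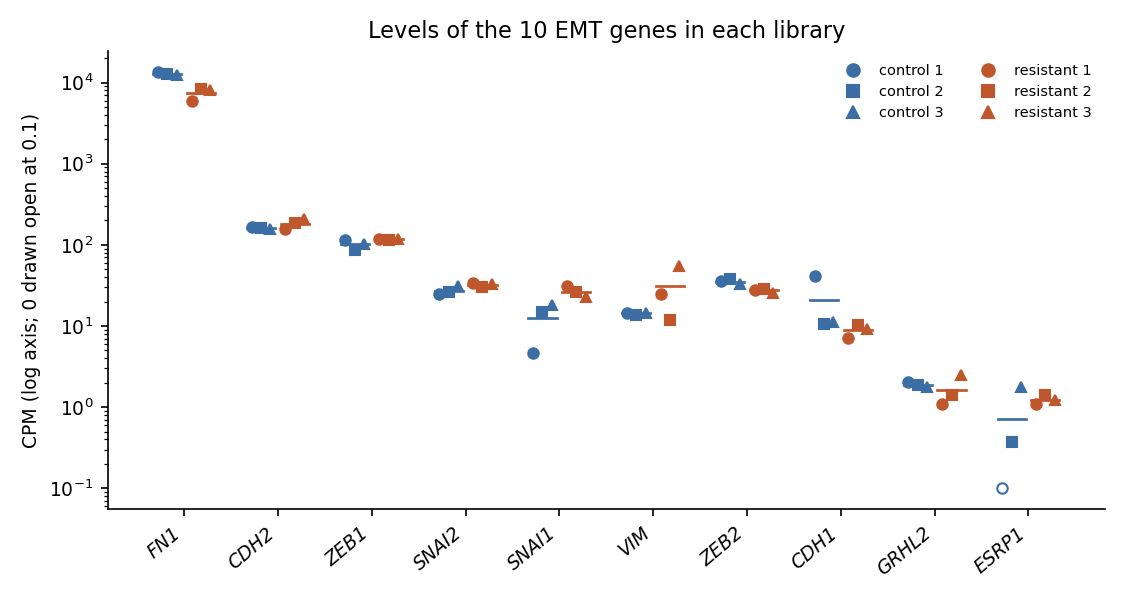
CPM on a log axis of the 10 EMT genes in each library, with 3 control and 3 resistant libraries as points and group means as lines, ordered by level per kilobase of transcript. FN1 was the highest gene and lay lower in all resistant libraries, CDH1 stood out in control replicate 1 at 41.1 CPM, and VIM stood out in resistant replicate 3 at 55.6 CPM.

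Fibronectin was by far the most abundant of the 10 transcripts and fell in resistant cells. FN1 encodes the secreted glycoprotein that integrins assemble into fibrils around cells, and in hepatocytes it is also exported to plasma. Its level was 13654, 12598 and 12346 CPM in control replicates 1, 2 and 3, and 5946, 8241 and 8162 CPM in resistant replicates 1, 2 and 3. Every resistant library lay below every control library, and resistant replicate 1 was the lowest. The means were 12866 ± 694 and 7450 ± 1303 CPM (SD, n = 3 each), 1.73-fold lower in resistant cells. The log2FC was -0.79 (standard error, SE, 0.08; edgeR adjusted p 2.78e-09). Without control replicate 1 and resistant replicate 3 the log2FC was -0.81 (SE 0.11), so the decrease was as large without the libraries that stood apart. FN1 counts among the mesenchymal markers, and it was lower in the resistant cells. The secreted liver proteins ALB and APOB were lower in the same libraries, with resistant replicate 1 again the lowest. SERPINA1, also secreted, was lower too but with another order. It had 3.79, 1.88 and 3.27 CPM in resistant replicates 1, 2 and 3, so replicate 1 was its highest resistant library. Whether any of these decreases bears on FN1 was not tested.

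FN1 spans 215360440 to 215436172 on chromosome 2, minus strand. Gene spans are from GENCODE 29 on GRCh38, while no source used here gives the build used for counting. Its promoter is shown because FN1 is the member with the firmest change. The RefSeq promoter table (GRCh38.p14), with 250 bases before to 50 after each start, matched 5 of the 10 members (FN1, VIM, CDH2, ZEB1 and ZEB2) with 12 windows. It gave the following minus-strand window at chr2:215436019-215436318, with a cAMP response element in capitals.
FN1 promoter: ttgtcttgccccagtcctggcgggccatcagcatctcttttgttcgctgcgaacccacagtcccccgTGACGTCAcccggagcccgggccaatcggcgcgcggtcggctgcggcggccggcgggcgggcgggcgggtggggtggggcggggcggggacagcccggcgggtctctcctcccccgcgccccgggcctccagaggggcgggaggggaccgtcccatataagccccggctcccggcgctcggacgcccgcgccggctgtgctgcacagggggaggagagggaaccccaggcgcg
The element TGACGTCA, which reads the same on both strands, starts 183 bases before the start site. It is found in 1.85% of the 35116 promoter windows, and among the 12 windows of the members only in that of FN1. The window holds neither CACCTG nor CAGGTG, the E-box of the ZEB and SNAIL families read on either strand. A match is a description of the letters and not of binding.

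Vimentin was called higher, but its level in resistant cells came largely from 1 library. VIM encodes the intermediate filament protein of mesenchymal cells and is normally low in hepatocytes. It had 14.4, 13.7 and 14.7 CPM in control replicates 1, 2 and 3, and 24.9, 11.8 and 55.6 CPM in resistant replicates 1, 2 and 3. Control libraries were nearly identical, resistant replicate 2 lay below all of them, and resistant replicate 3 lay far above. The means were 14.3 ± 0.473 and 30.8 ± 22.5 CPM (SD, n = 3 each). The log2FC was 1.12 (SE 0.31, edgeR adjusted p 0.00628). Without resistant replicate 3 it was 0.36 (SE 0.32, edgeR adjusted p 0.471). The call was also lost with all libraries in DESeq2 (adjusted p = 0.213) and in limma-voom (0.0519). Resistant replicate 3 is the library with the high VWF and CDH5 levels, and endothelial cells and fibroblasts make vimentin. Their part in the VIM value was not tested. In bulk RNA a few cells with much VIM and a small rise in all cells cannot be told apart, and the same holds for fewer cells of a type against less RNA per cell.

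VIM lies on the plus strand of chromosome 10, from 17228259 to 17237593, and the antisense gene VIM-AS1 overlaps it. Because no source used here states whether counting was stranded, reads of VIM and VIM-AS1 cannot be separated. The RefSeq promoter window, chr10:17227991-17228290 on the plus strand of GRCh38.p14, is shown for comparison with that of FN1. It holds neither the E-box nor TGACGTCA.
VIM promoter: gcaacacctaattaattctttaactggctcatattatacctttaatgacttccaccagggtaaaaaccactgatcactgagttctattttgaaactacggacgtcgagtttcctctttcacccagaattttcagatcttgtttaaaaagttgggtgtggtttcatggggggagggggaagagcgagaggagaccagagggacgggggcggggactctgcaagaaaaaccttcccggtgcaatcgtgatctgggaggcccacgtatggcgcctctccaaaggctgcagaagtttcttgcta

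**Figure D2:**
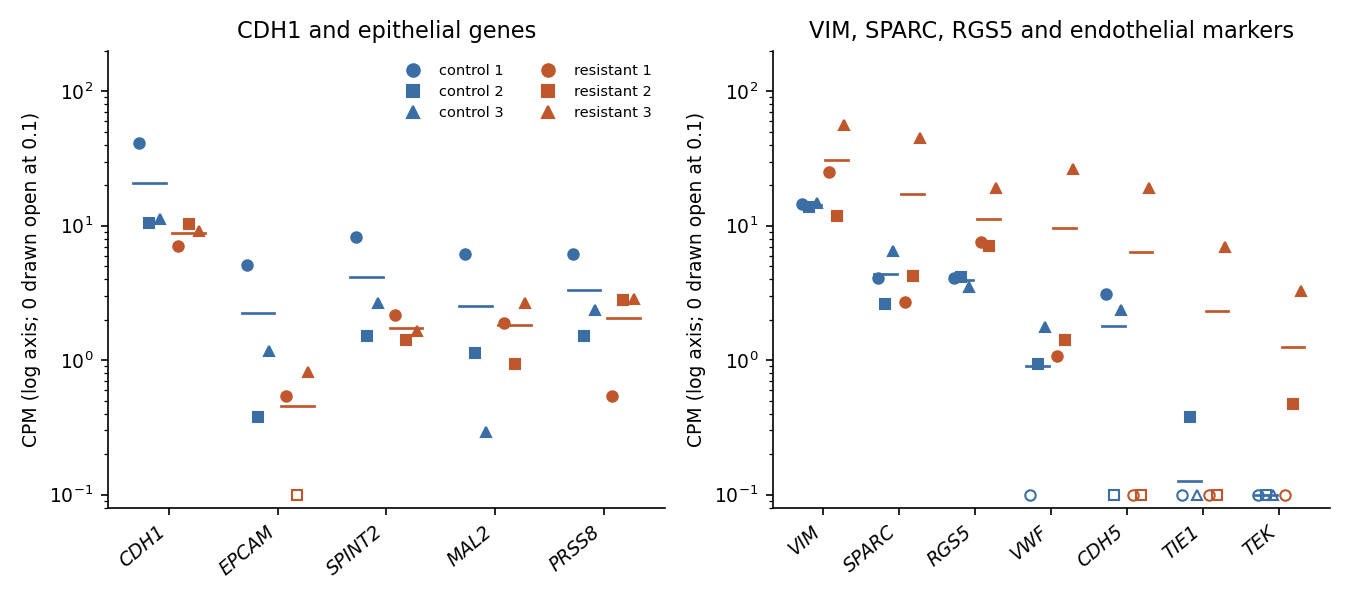
CPM on a log axis in each library (points, with group means as lines) for CDH1 with EPCAM, SPINT2, MAL2 and PRSS8 on the left, and for VIM with SPARC, RGS5 and 4 endothelial markers on the right. Control replicate 1 is the highest library for all 5 genes on the left, and resistant replicate 3 is the highest for all 7 on the right. Apart from CDH1 and VIM the genes were drawn with their values known, so these counts describe the choice and are not a separate result. PECAM1, which is not drawn, was highest in control replicate 1.

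E-cadherin was low in these cells and was called lower in resistant cells, a call that rested on control replicate 1. CDH1 encodes the adherens junction cadherin whose loss is the classical sign of EMT. It had 41.1, 10.5 and 11.1 CPM in control replicates 1, 2 and 3, from 80, 56 and 38 counts. Resistant replicates 1, 2 and 3 had 7.04, 10.3 and 9.21 CPM, from 26, 44 and 45 counts. Control replicate 1 lay far above every other library, while the lowest control and the highest resistant library differed by little (10.5 and 10.3 CPM). The means were 20.9 ± 17.5 and 8.86 ± 1.68 CPM (SD, n = 3 each). The log2FC was -1.13 (SE 0.37, edgeR adjusted p 0.0219). Without control replicate 1 it was -0.28 (SE 0.36, edgeR adjusted p 0.665). The call was also lost without resistant replicate 1 (0.0865) and in limma-voom (0.182). EPCAM, the epithelial adhesion molecule, showed the same single high library, with 5.14 CPM in control replicate 1 and at most 1.17 CPM in the others. These values rest on 10 counts in control replicate 1 and 0 to 4 elsewhere, and EPCAM was too low to test. ESRP1, which marks epithelial cells too, was at 0 in control replicate 1. In that shallowest library 0 counts allow up to 1.54 CPM by 3 counts, so the 0 says little about the ESRP1 level. CDH1 lies on the plus strand of chromosome 16, from 68737225 to 68835548.

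N-cadherin was well above E-cadherin in all 6 libraries and was not called. CDH2 had 165, 162 and 158 CPM in control replicates 1, 2 and 3 and 158, 185 and 206 CPM in resistant replicates 1, 2 and 3. Resistant replicate 1 lay among the control libraries and the other 2 above them. The log2FC was 0.18 (SE 0.11, edgeR adjusted p 0.23). Per kilobase of the longest coding transcript, CDH2 was 4.5 to 17.4 times CDH1 in the control libraries and 20.1 to 25.4 times CDH1 in the resistant libraries. The lowest ratio was that of control replicate 1, and CDH2 exceeded CDH1 in the sensitive cells too. CDH2 spans 27950966 to 28177446 on chromosome 18, minus strand.

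The cadherin that fell clearly was neither of these. CDH17, the liver-intestine cadherin, had 185, 234 and 213 CPM in control replicates 1, 2 and 3 and 104, 128 and 120 CPM in resistant replicates 1, 2 and 3. The groups did not overlap, and the log2FC was -0.85 (SE 0.11, edgeR adjusted p 1.72e-07). Its call held in all 17 alternatives. Per kilobase, CDH17 was 1.32 to 1.69 times CDH2 in the control libraries and 0.68 to 0.81 times CDH2 in the resistant ones. So CDH17 was the leading cadherin in control cells and CDH2 in resistant cells, without a called change in CDH2. Together the 2 genes made up 82.0 to 91.1% of the summed CPM of 23 cadherin genes. Only 4 of the 23 had a mean of at least 5 CPM, the fourth being CDH24 with a log2FC of -0.52 (SE 0.32, edgeR adjusted p 0.254). Of the 21 cadherins beside CDH1 and CDH2, 3 were tested, and CDH17 was the 1 called, against 24.1% of all tested genes.

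**Figure D3:**
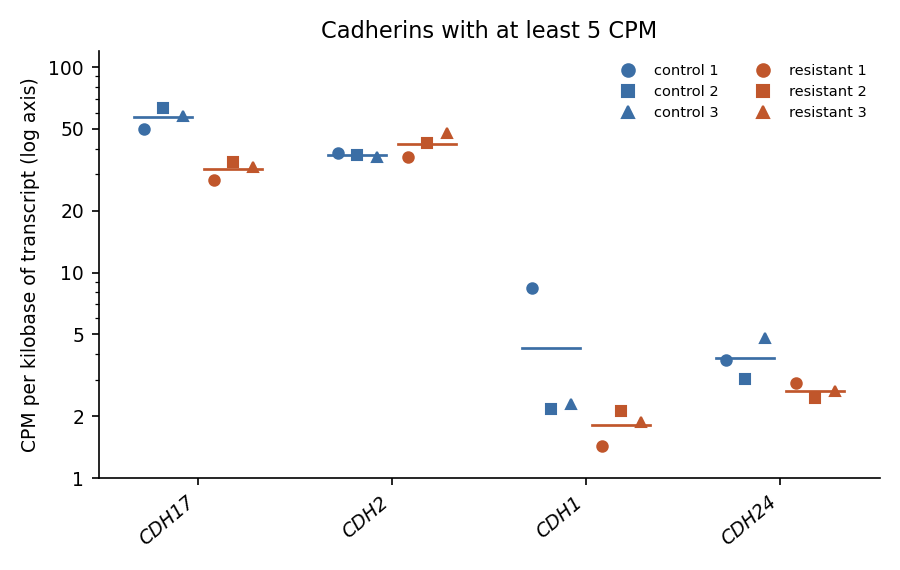
CPM per kilobase of the longest coding transcript, on a log axis, for the 4 cadherins with a mean of at least 5 CPM in each of the 3 control and 3 resistant libraries (points, with group means as lines). CDH17 lies lower in all resistant libraries, CDH2 overlaps between groups, and the control mean of CDH1 is pulled up by control replicate 1.

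Among the EMT transcription factors, SNAI1 rose. SNAI1 encodes SNAIL, a short-lived zinc-finger repressor of CDH1. It had 4.63, 15.1 and 18.2 CPM in control replicates 1, 2 and 3 and 30.9, 26.1 and 22.7 CPM in resistant replicates 1, 2 and 3. The groups did not overlap, and control replicate 1, the library with high CDH1, was the lowest, with 9 counts. The means were 12.6 ± 7.10 and 26.6 ± 4.09 CPM (SD, n = 3 each), 2.10-fold higher in resistant cells. The log2FC was 0.98 (SE 0.28, edgeR adjusted p 0.0074). With control replicate 1 left out the increase was smaller, at 0.69 (SE 0.24, edgeR adjusted p 0.0436). Over all alternatives the adjusted p ranged from 0.00136 to 0.0438, the latter without resistant replicate 1. SNAI1 lies on the plus strand of chromosome 20, from 49982999 to 49988886.

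SNAI2, encoding the related repressor SLUG, was not called. It had 24.7, 26.6 and 30.8 CPM in control replicates 1, 2 and 3 and 34.1, 29.9 and 33.3 CPM in resistant replicates 1, 2 and 3. The groups overlapped in 1 library on each side, and the log2FC was 0.24 (SE 0.19, edgeR adjusted p 0.411). Per kilobase of transcript SNAI2 had 11.3 ± 1.29 CPM and SNAI1 7.49 ± 4.21 CPM in control cells (SD, n = 3 each). In resistant cells SNAI2 had 13.4 ± 0.933 and SNAI1 15.7 ± 2.43 CPM per kilobase (SD, n = 3 each). In each group the difference between the means was within the SD of SNAI1. Within libraries, SNAI2 was above SNAI1 in every control library, with 10.2, 10.9 and 12.7 against 2.74, 8.94 and 10.8 CPM per kilobase. In resistant replicates 1 and 2 SNAI1 was the higher, with 18.3 and 15.5 against 14.0 and 12.3. In resistant replicate 3 they were nearly equal (13.5 for SNAI1 and 13.7 for SNAI2). The difference between these genes was not tested. SNAI2 spans 48917604 to 48921740 on chromosome 8, minus strand.

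ZEB1 and ZEB2, the zinc-finger and homeobox repressors, were expressed in both groups and neither was called. ZEB1 had 116, 87.0 and 103 CPM in control replicates 1, 2 and 3 and 119, 116 and 119 CPM in resistant replicates 1, 2 and 3. The resistant libraries were nearly equal, and control replicate 1 reached their level. The log2FC was 0.23 (SE 0.12, edgeR adjusted p 0.183). ZEB2 had 35.5, 37.7 and 32.6 CPM in control and 28.2, 28.9 and 25.6 CPM in resistant replicates 1, 2 and 3. The groups of ZEB2 did not overlap, yet its log2FC of -0.36 (SE 0.19) did not pass (edgeR adjusted p 0.172). Per kilobase ZEB1 had 16.3 ± 2.33 and ZEB2 3.68 ± 0.267 CPM in control cells (SD, n = 3 each). CDH1, which ZEB1 represses, had 4.28 ± 3.58 CPM per kilobase (SD, n = 3) in the same control cells, below ZEB1.

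ZEB1 lies on the plus strand of chromosome 10, from 31318495 to 31529814, and ZEB2 spans 144364364 to 144524583 on chromosome 2, minus strand. The antisense genes ZEB1-AS1 and ZEB2-AS1 overlap them, and their reads cannot be separated here. The E-box CACCTG, or CAGGTG on the other strand, is the sequence that ZEB and SNAIL proteins bind. It occurs in 20.6% of the 35116 promoter windows and in 2 of the 12 windows of the members, both of ZEB1. The ZEB1 window with 3 of them, chr10:31318966-31319265 on the plus strand of GRCh38.p14, is shown with the E-boxes in capitals.
ZEB1 promoter: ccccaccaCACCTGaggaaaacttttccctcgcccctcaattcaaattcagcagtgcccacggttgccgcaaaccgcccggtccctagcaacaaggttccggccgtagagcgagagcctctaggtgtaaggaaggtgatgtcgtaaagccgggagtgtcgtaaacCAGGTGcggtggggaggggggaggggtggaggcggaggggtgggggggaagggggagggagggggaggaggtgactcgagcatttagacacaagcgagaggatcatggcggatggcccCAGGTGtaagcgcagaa

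The epithelial regulators were at the edge of detection. GRHL2, a grainyhead factor that activates CDH1, had 4, 10 and 6 counts in control and 4, 6 and 12 counts in resistant replicates 1, 2 and 3. ESRP1, which directs epithelial exon choice, had 0, 2 and 6 counts in control and 4, 6 and 6 counts in resistant replicates 1, 2 and 3. The 0 counts of ESRP1 in control replicate 1 allow a level of up to 1.54 CPM by 3 counts, above the ESRP1 level in 4 of the other libraries. Neither gene passed the filter. Fitted without a filter, the log2FC was -0.17 (SE 0.99) for GRHL2 and 0.73 (SE 1.42) for ESRP1, so no difference was detectable at this depth. GRHL2 lies on the plus strand of chromosome 8 from 101492432 to 101669726, and ESRP1 on the same strand from 94641074 to 94707466.

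Ordered by mean level per kilobase over the 6 libraries, FN1 (1141 CPM per kilobase) stood far above CDH2 (39.8), and the ranges of these genes over libraries overlapped with no other member. ZEB1 (17.6), SNAI2 (12.3), SNAI1 (11.6) and VIM (10.5) followed, and their ranges overlapped, that of ZEB1 (13.9 to 19.0) included. ZEB2 (3.28) and CDH1 (3.05) overlapped with each other and with SNAI1, whose lowest library had 2.74 CPM per kilobase, and CDH1 also with VIM. GRHL2 (0.339) and ESRP1 (0.257) came last and also overlapped. The order rests on the longest coding transcript of each gene, which need not be the one expressed.

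**Figure D4:**
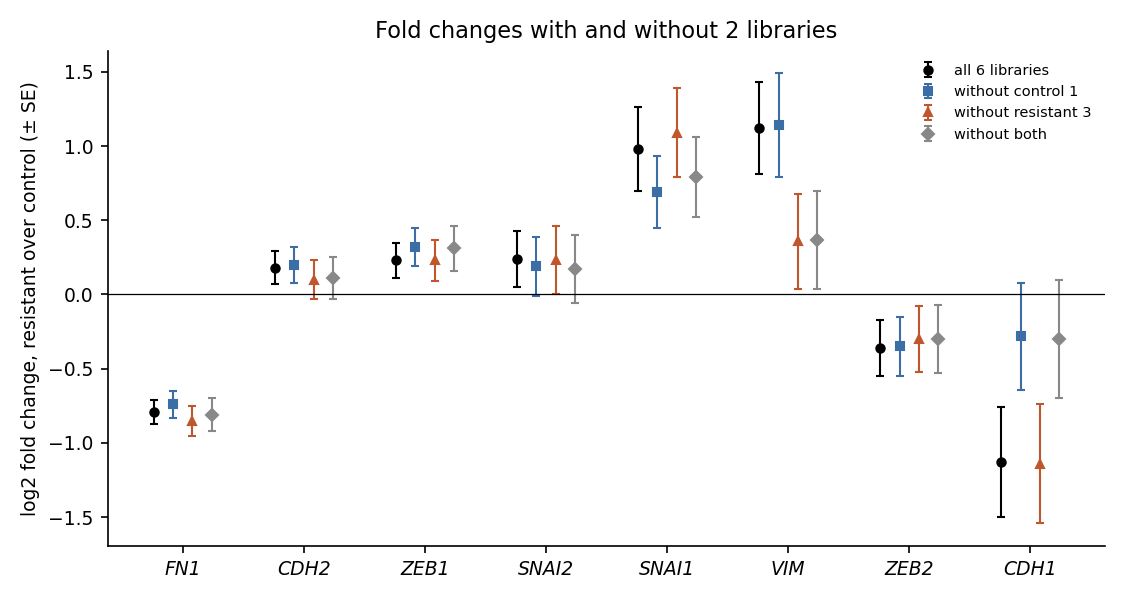
Log2 fold change, resistant over control, with its SE for the 8 tested EMT genes, using all 6 libraries, without control replicate 1, without resistant replicate 3, and without both. FN1 keeps its place under each, and SNAI1 stays above 0, at 0.98, 0.69, 1.09 and 0.79 in that order. CDH1 moves from -1.13 to -0.28 without control replicate 1, and VIM from 1.12 to 0.36 without resistant replicate 3.

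The partners of these genes were followed with 11 gene lists, and values after ± are the SD over 3 libraries. Among adherens junction catenins and nectins 1 of 8 tested was higher and 1 lower, with a median log2FC of 0.18. Of all tested genes 11.7% were called higher and 12.3% lower. The linker vinculin, VCL, rose from 253 ± 15.2 to 377 ± 37.5 CPM (log2FC 0.57, SE 0.10, edgeR adjusted p 2.01e-05). The nectin NECTIN1 fell, with a log2FC of -0.95 (SE 0.29, edgeR adjusted p 0.012), a call lost without control replicate 2, control replicate 3 or resistant replicate 1. The catenin genes CTNNA1, CTNNB1 and CTNND1 were not called, with log2FC of 0.20, -0.21 and 0.18 in that order. Of 8 tested desmosome genes 3 were called, each of them higher (median 0.11), against 11.7% of all tested genes called higher. The desmosomal cadherins DSC2 (log2FC 0.64, SE 0.15) and DSG2 (0.36, SE 0.10) were 2 of these. The DSG2 groups overlapped, and its call was lost without control replicate 3 (edgeR adjusted p 0.0712) or resistant replicate 2 (0.0509). The desmosomal plaque gene DSP had a log2FC of 0.06 and was not called.

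Of 14 tested polarity and junction genes, listed as repressed by ZEB factors or activated by GRHL2, 5 were called. Each of the 5 was lower, against 12.3% of all tested genes called lower. The median log2FC of the 14 was -0.51. AP1M2, the epithelial clathrin adaptor subunit, fell from 22.2 ± 7.58 to 7.98 ± 1.26 CPM (log2FC -1.44, SE 0.30, edgeR adjusted p 0.000412). Cingulin, CGN, fell from 51.6 ± 4.10 to 32.7 ± 3.05 CPM (log2FC -0.66, SE 0.17, edgeR adjusted p 0.00315). As given above, 10 of the 21 listed genes were highest in control replicate 1. With that library left out 4 of 14 were lower, and with resistant replicate 3 left out as well 1 of 13 was, with CGN at an edgeR adjusted p of 0.0635. The medians were then -0.36 and -0.51. Of all tested genes 1066 of 11198 and 910 of 10909 were called lower in these settings, and 19.0 and 16.1% were called in either direction. TJP1, the tight junction scaffold ZO-1, had a log2FC of -0.07, and the tight junction protein OCLN had 0.26, neither called.

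Other EMT transcription factors gave 1 call among 9 tested (median 0.14), against 24.1% of all tested genes called. HMGA2, an oncofetal chromatin protein that can activate SNAI1, rose from 51.4 ± 6.56 to 126 ± 13.9 CPM (SD, n = 3 each). Its log2FC was 1.29 (SE 0.13, edgeR adjusted p 1.65e-09), and the call held in all 17 alternatives. TWIST1 and TWIST2 were at 0 in every library. Of the other epithelial-fate regulators 1 of 7 was higher and 1 lower. KLF5 rose from 164 ± 11.6 to 229 ± 15.2 CPM, and the pioneer factor FOXA1 fell from 30.8 ± 9.58 to 16.7 ± 3.54 CPM. The FOXA1 call was lost without control replicate 1 (edgeR adjusted p 0.0981), where its own level was highest, or resistant replicate 2 (0.069).

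Of 10 splicing regulators of EMT 5 were higher and 2 lower (median 0.18), against 24.1% of all tested genes called. SRSF1, which favours mesenchymal exons in several transcripts, rose from 74.9 ± 11.8 to 129 ± 14.8 CPM, and QKI from 153 ± 22.7 to 205 ± 7.55 CPM. ESRP2, the relative of ESRP1, was also called higher, from 22.0 ± 2.15 to 33.5 ± 5.85 CPM (log2FC 0.59, SE 0.21, edgeR adjusted p 0.0321). ESRP2 was not followed by itself through the alternatives. MBNL2 fell from 72.7 ± 12.9 to 41.4 ± 4.90 CPM and RBM47, an epithelial RNA-binding protein, from 189 ± 13.9 to 142 ± 8.13 CPM. The calls thus included epithelial regulators on both sides. The count was 2 higher and 2 lower when control replicate 1 was left out, and 1 and 1 when resistant replicate 3 was left out too, where QKI (edgeR adjusted p 0.137) and RBM47 (0.0738) lost their calls. The 2 calls of 10 that were then left stand against 16.1% of all tested genes called under the same setting, which is near that background. Gene counts do not show exon choice itself.

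Among cofactors of SNAIL and ZEB and genes of SNAIL turnover 4 of 21 were higher and 2 lower (median -0.08). Of all tested genes 24.1% were called, 11.7% higher and 12.3% lower. The corepressor CTBP2 rose from 118 ± 12.6 to 185 ± 6.91 CPM (log2FC 0.64, SE 0.11, edgeR adjusted p 2.4e-05). BTRC, the ubiquitin ligase subunit that marks SNAIL for degradation, rose 1.93-fold (log2FC 0.93, SE 0.18, edgeR adjusted p 9.52e-05). GSK3B, the kinase that primes SNAIL for BTRC, had a log2FC of -0.41 and lost its call without any 1 of the libraries except resistant replicate 2. The methyltransferase EHMT2 had -0.99 and lost its call without control replicate 1 (edgeR adjusted p 0.273), resistant replicate 1 (0.113) or resistant replicate 2 (0.0725). Leaving out control replicate 1 gave 4 calls among 22 tested, all higher, against 19.0% of all tested genes called.

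Around fibronectin, 5 of 15 tested receptor and assembly genes were higher and 3 lower (median -0.07), against 24.1% of all tested genes called. The fibronectin receptor subunit ITGB1 rose from 650 ± 46.5 to 1054 ± 44.1 CPM (log2FC 0.70, SE 0.09, edgeR adjusted p 5.55e-08). LTBP1, which tethers latent TGF-beta to fibronectin fibrils, rose from 42.3 ± 5.81 to 120 ± 16.3 CPM (log2FC 1.53, SE 0.14, edgeR adjusted p 8.95e-11). Both calls held in all 17 alternatives, so the receptor subunit and the fibril-bound LTBP1 rose while FN1 itself fell. The crosslinking enzyme TGM2 fell from 84.7 ± 18.3 to 56.5 ± 6.16 CPM and fibulin-1, FBLN1, from 81.9 ± 6.88 to 58.4 ± 5.26 CPM. TGM2 lost its call without control replicate 3 (edgeR adjusted p 0.113), and FBLN1 without control replicate 3 (0.0655) or resistant replicate 3 (0.06). Without resistant replicate 3 the list had 2 higher and 1 lower of 14 tested, against 19.6% of all tested genes called. Without control replicate 1 it had 3 and 2 of 15, against 19.0%. ITGA5, the alpha subunit of the main fibronectin receptor, was not called (log2FC 0.20).

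Of 10 intermediate filament partners of vimentin 2 were tested and neither was called. These were PLEC and NES, at log2FC of 0.05 and -0.06, with unadjusted p of 0.557 and 0.588 in edgeR. Mesenchymal effector genes were 2 higher and 2 lower of 12 (median 0.02), against 24.1% of all tested genes called. The 2 higher were TGFBI and SPARC. TGFBI rose from 137 ± 11.9 to 182 ± 11.6 CPM. SPARC, like VIM, was highest in 1 library, with 44.6 CPM in resistant replicate 3 and 2.64 to 6.45 CPM in the other 5 libraries. Its log2FC of 2.03 (SE 0.57, edgeR adjusted p 0.00697) became -0.30 without resistant replicate 3 (edgeR adjusted p 0.814), and its call was also lost without control replicate 2 (0.0951). S100A4 fell from 716 ± 45.0 to 506 ± 45.7 CPM. CALD1 had a log2FC of -0.38 and lost its call without replicate 1 or 3 of either group (edgeR adjusted p from 0.0899 to 0.10). Without control replicate 1 and resistant replicate 3 the list had 1 call among 12 tested, on the lower side. In that setting 16.1% of all tested genes were called, and TGFBI had an edgeR adjusted p of 0.0648.

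**Figure D5:**
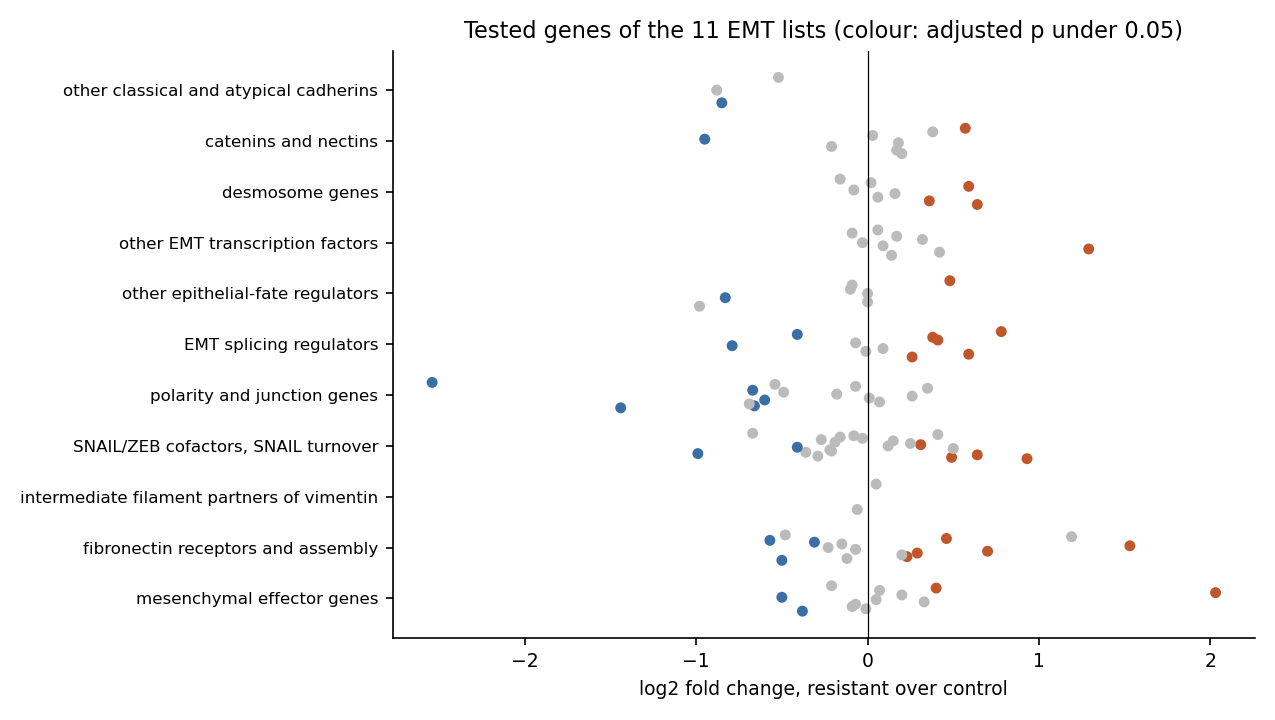
Log2 fold change, resistant over control, of every tested gene in the 11 gene lists, one row per list and one point per gene, with colour for an adjusted p under 0.05 in edgeR (orange higher, blue lower, grey not called). Polarity and junction genes have 5 lower and 0 higher calls, and desmosome genes 3 higher and 0 lower. The remaining lists with more than 1 call have calls on both sides. Of all tested genes 11.7% were called higher and 12.3% lower.

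The genes whose pattern over the 6 libraries was most like that of a called member were found among 9853 tested genes with a mean of at least 5 CPM. The measure was the mean absolute difference of log2 CPM, each gene centred on its own mean. FN1 was most like ICAM1 (difference 0.036) and MYO10 (0.044), both of which were also called lower. SNAI1 was most like MTERF1 (0.082) and NECAB1 (0.16), which share the low value in control replicate 1, with 3.09 and 1.03 CPM there, and were not called. CDH1 was most like PDK2 (0.21) and ALDH6A1 (0.24), with 12.9 and 30.9 CPM in control replicate 1 and at most 4.94 and 14.4 CPM in the other libraries. VIM was most like PTK6 (0.26) and RGS5 (0.27), which had 18.4 and 19.2 CPM in resistant replicate 3 and at most 10.3 and 7.58 CPM elsewhere. RGS5 is a pericyte gene, and its call was lost without resistant replicate 3 (edgeR adjusted p 0.271).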

How the data were processed

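RNA was sequenced from 3 control and 3 resistant MHCC97H libraries. Trimmomatic, HISAT2 and Bowtie2 are named in the submitters' processing notes, without roles or versions. The read counter, genome build, annotation and strand setting were not given in the sources used here. The authors deposited raw counts, whole numbers for each gene symbol with no normalization, and the 6 single files equalled the table of the whole series. In the file 27 symbols had become dates and were renamed from the Entrez ID. Totals were 1913469, 5345272 and 3401241 counts in control replicates 1, 2 and 3, and 3745068, 4280175 and 4961907 in resistant replicates 1, 2 and 3. Between 81.8 and 88.5% of counts from 1 to 20 were even, so independent fragments may be fewer than the counts, and limits set by a count of 0 cover counting error only. On halved counts, the chi-square over its degrees of freedom between replicates was 1.78 to 2.86, and none was taken for a repeat.

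Genes were filtered with filterByExpr and normalised by TMM. The test was edgeR 4.0.16 (quasi-likelihood, R 4.3.3) on group alone, with Benjamini-Hochberg adjustment over the 10804 tested genes. The SE is the log2 fold change over the square root of F. The fit was tested on simulated data. The members, the lists and the tests were chosen with earlier results of these data known. Genes named were the 10 members, up to 2 called genes per direction of each of 11 lists, the 2 nearest patterns of each called member with a mean of at least 5 CPM (log2 CPM with a prior count of 2), and the most abundant of each of 4 marker lists (LUM, KDR, PTPRC and KRT8, none of them called). Other genes named were chosen after their values were seen. As alternatives, scaling was changed to RLE, upper quartile or totals, and the test to DESeq2 1.42.0 or limma-voom (limma 3.58.1). Further ones were 2 other filters, halved counts, a replicate block, a threshold of 0.01, and the omission of each library. Leaving out control replicate 1 and resistant replicate 3 together, the list counts without these libraries, and the alternatives for ALB, APOB and SERPINA1 were chosen after seeing the data. Transcript lengths are the longest coding transcript in GENCODE 29. Figures were drawn with matplotlib 3.10.9.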

Additional observations from a re-analysis of the deposited data

How the results depend on the processing

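In edgeR, counts of called genes stayed within 1.5 times the reported 1269 higher and 1332 lower except at an adjusted p of 0.01, with 800 and 851. Of the 10 EMT genes, 2 were called higher and 2 lower. The higher count was 1 in DESeq2 and in limma-voom, and 1 to 2 when each library was left out in turn. The lower count was 1 in limma-voom, 1 at an adjusted p of 0.01, and 1 to 2 when each library was left out. Without control replicate 1 and resistant replicate 3 together, 1 was higher (SNAI1) and 1 lower (FN1). The log2 fold change of FN1 ranged from -0.86 to -0.64 and that of SNAI1 from 0.69 to 1.27 over the 17 alternatives, while CDH1 ranged from -1.50 to -0.28 and VIM from 0.36 to 1.52. None of the members CDH2, ZEB1, ZEB2 and SNAI2 was called under any alternative. The sign turned for 1 called gene, SPARC, whose log2 fold change was -0.30 to 2.53 when each library was left out (-0.30 without resistant replicate 3) and -0.33 without resistant replicate 3 and control replicate 1. Of the 32 other named genes with alternatives that were called, 17 kept their call in all of them. The replicate numbers did not pair the libraries: deviations of same-numbered libraries correlated at -0.015, 0.033 and -0.006, and not every library correlated best with its own number. With a replicate block 1248 genes were higher and 1270 lower, with the same number of members called, and CDH1 had an adjusted p of 0.0497. Depth limits GRHL2 and ESRP1, with 20 and 8 counts over control and 22 and 16 over resistant libraries, where 3 counts stand for 0.565 to 1.54 CPM.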
